A study of Mus musculus with 8 samples.

Results

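The Hippo core described here is 10 genes of the 19058 in the deposited table of normalized abundance, in all 8 libraries. The members are Nf2, Stk4, Stk3, Sav1, Lats1, Lats2, Mob1a, Mob1b, Yap1 and Wwtr1. They were chosen by name, as the rows whose Ensembl identifier maps to these mouse symbols. Earlier results of these data were known when they were chosen. All 10 had a row, and all 10 passed the filter on low values with a mean above 10.

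The series sequenced polyadenylated RNA of mouse embryos collected as late morulae 78 h after fertilization. All embryos received a small interfering RNA (siRNA) by injection as zygotes. The double knockdown received siRNA against both Rbbp4 and Rbbp7, the Rbbp4 knockdown against Rbbp4 alone, the Rbbp7 knockdown against Rbbp7 alone, and the control a non-specific siRNA. Each group had 2 libraries, and RBBP4 and RBBP7 are related histone-binding proteins shared by several chromatin complexes. The labels give no strain, and they do not say whether a group's libraries were made from separate pools of embryos. The p-values therefore measure the spread between these libraries, which may be technical. The siRNA sequences were not used here, so an effect of losing RBBP4 and an effect of that siRNA on other transcripts cannot be told apart.

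The Hippo pathway is a kinase cascade that restrains the transcription co-activators YAP and TAZ. In the mammalian form, MST kinases with their scaffold SAV1 activate the LATS kinases and their MOB1 partners, and LATS then phosphorylates YAP and TAZ, which keeps them out of the nucleus. In the mouse morula, polarized outer cells have low Hippo signalling, so nuclear YAP acts with TEAD4 on Cdx2 and Gata3, while inner cells with active LATS switch on Sox2. Much of this control acts on phosphorylation and location of proteins, neither of which a messenger RNA level measures.

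Mob1a was the 1 member of the core with a change that passed the test, at an adjusted p below 0.05. It fell in double knockdown embryos to 52.3% of the control mean, in a comparison where 1.15% of all tested genes were called, and it also fell when all libraries with Rbbp4 siRNA were set against all without. Its paralog Mob1b, the kinases Stk3, Stk4, Lats1 and Lats2, the scaffolds Sav1 and Nf2 and the co-activators Yap1 and Wwtr1 passed the test in none of the 9 comparisons made. In the wider network, the kinase gene Taok3 rose and the ubiquitin ligase gene Btrc fell in the double knockdown, where 0.645% of all genes were called higher and 0.501% lower. Both of these calls were lost without any 1 of the 8 libraries, and those of Mob1a without some of them.

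Both targeted messages were low where they should be. Rbbp4 stood at 7.8% of the control mean in double knockdown embryos, 7.44% in Rbbp4 knockdown embryos and 88.3% in Rbbp7 knockdown embryos. Rbbp7 stood at 3.8% in double knockdown embryos, 83.3% in Rbbp4 knockdown embryos and 3.79% in Rbbp7 knockdown embryos. Library totals of normalized abundance lay between 11334107 and 12011829. Control replicate 1 stood apart, with 3937 genes at 0, where the other libraries had 2644 to 3237, and with 6.21% of abundance from mitochondrial genes against 4.26% to 5.53%. Double knockdown replicate 2 came next on both measures, with 3237 genes at 0 and 5.53%, and it had the lowest total. All 12 markers of the late morula and blastocyst were present, with summed abundances of 36585 to 50664. The sums were lowest in the double knockdown libraries, at 38328 and 36585. There 3 of the 12 lay above the control and 9 below, with a median log2 change of −0.40. At an unadjusted p below 0.05 there were 5, against 17.3% of all tested genes. Of the 12 markers, Krt18, a keratin of the outer layer, was called lower in the double knockdown, with a log2 change of −1.08 ± 0.19 (adjusted p = 0.0358). That call was lost without any 1 of the 8 libraries (adjusted p 0.0567 to 0.147). Krt18 changed by −0.41 ± 0.19 in the Rbbp4 knockdown (adjusted p = 0.851; −0.62 to −0.20 with a library left out) and by −1.51 ± 0.19 in the Rbbp7 knockdown (adjusted p = 0.0616). Its average effect was 0.01 ± 0.13 for Rbbp4 siRNA (adjusted p = 0.982) and −1.09 ± 0.13 for Rbbp7 siRNA (adjusted p = 0.0246). The call for Rbbp7 siRNA was lost without any 1 library (adjusted p 0.0533 to 0.149) except double knockdown replicate 2 (0.0385). Nanog, a gene of the inner cells, was called lower in the double knockdown against the Rbbp7 knockdown (−1.12 ± 0.11, adjusted p = 0.00916, where 0.358% of all genes were called), and that call was lost without Rbbp7 knockdown replicate 2 (adjusted p = 0.108). It was also called in the average effect of Rbbp4 siRNA (−0.58 ± 0.08, adjusted p = 0.0232), which pools −1.12 in embryos with Rbbp7 siRNA and −0.05 in embryos without. The interaction, which is the difference between these, was −1.07 ± 0.16 (unadjusted p = 8.72e-05, adjusted p = 0.369). In the comparisons with the control Nanog was not called, and its change was −0.55 ± 0.11 in the double knockdown (adjusted p = 0.0572), −0.05 ± 0.11 in the Rbbp4 knockdown (adjusted p = 0.981) and 0.56 ± 0.11 in the Rbbp7 knockdown (adjusted p = 0.168). The call of the average was lost without control replicate 1, either Rbbp4 knockdown library, either Rbbp7 knockdown library or double knockdown replicate 1 (adjusted p 0.0628 to 0.143).

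Markers of other cells were scarce. Of 10 cumulus and granulosa markers, 5 had a row, with summed abundances of 139 and 119 in double knockdown embryos, 58 and 92.7 in Rbbp4 knockdown embryos, 49.9 and 41.8 in Rbbp7 knockdown embryos, and 58.6 and 48.1 in controls. Most of that was Foxl2, at 101 and 74.4 in the double knockdown against 29.3 and 12 in the control, and Star, at 16.7 to 51.1 over the libraries. Amh was listed at 0 in 3 libraries and reached 6.29, and Inha was listed at 0 in 5 and reached 3.71. Foxl2 did not pass the test (log2 change 2.14 ± 0.51, adjusted p = 0.0892), and neither did Star (0.08 ± 0.51, adjusted p = 0.958). Summed abundances of the blood, fibroblast and sperm markers with a row, which were 2, 2 and 4 genes, stayed at or below 29.4. The part of these cells in the changes below was not tested.

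The abundances are normalized between libraries but not for gene length, and the test was limma on log2(abundance + 1) with Benjamini-Hochberg adjustment over 12565 genes. Every adjusted p below comes from that fit, a gene is called below an adjusted p of 0.05, and the error given with a log2 change is its standard error. A fold change on this scale understates changes of genes with low values. In whole embryos, fewer cells of a type and less RNA per cell cannot be told apart.

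Nf2, at chromosome 11, 4765845 to 4849536 on the minus strand of GRCm38, encodes merlin, a membrane scaffold that brings LATS to the cell cortex. It had 1943 and 1612 in double knockdown embryos, 2026 and 1985 in Rbbp4 knockdown embryos, 2221 and 1933 in Rbbp7 knockdown embryos, and 2082 and 1954 in controls. Only double knockdown replicate 2 lay clearly below the other libraries, and every group overlapped another. The log2 change of the double knockdown from control was −0.19 ± 0.13, with a 95% interval of −0.49 to 0.11 (adjusted p = 0.497). It was −0.32 without double knockdown replicate 1 and −0.054 without double knockdown replicate 2. In the Rbbp4 and Rbbp7 knockdowns it was −0.0084 ± 0.13 and 0.04 ± 0.13.

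Stk4 encodes MST1, an initiating kinase of the cascade (chromosome 2, 164070322 to 164155524, plus strand). Its abundances were 789 and 779 in double knockdown embryos, 883 and 889 in Rbbp4 knockdown embryos, 999 and 913 in Rbbp7 knockdown embryos, and 918 and 1035 in controls. The double knockdown held the lowest 2 values, the Rbbp4 knockdown the next 2, and the groups without Rbbp4 siRNA overlapped each other at the top. The double knockdown's change was −0.31 ± 0.13, and its interval of −0.60 to −0.025 excluded 0 (unadjusted p = 0.0362), but the adjusted p was 0.252. The average effect of Rbbp4 siRNA was −0.21 ± 0.09 (unadjusted p = 0.0443, adjusted p = 0.334). Since 17.3% of all tested genes had an unadjusted p below 0.05 in the first of these comparisons and 14.2% in the second, Stk4 does not stand out from the background on this measure.

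Stk3 encodes MST2, the paralog of MST1 (chromosome 15, 34875496 to 35178921, minus strand). Its abundances were 219 and 196 in double knockdown embryos, 217 and 166 in Rbbp4 knockdown embryos, 204 and 156 in Rbbp7 knockdown embryos, and 220 and 211 in controls. The libraries of each knockdown group spread over a wider range than those of the control, and the changes from control, of −0.06 ± 0.23 (double), −0.18 ± 0.23 (Rbbp4) and −0.27 ± 0.23 (Rbbp7), had adjusted p-values of 0.74 to 0.952. The last was −0.47 without Rbbp7 knockdown replicate 1 and −0.078 without Rbbp7 knockdown replicate 2. Stretches of at least 100 bases of its transcripts match 8 other annotated genes at 95% identity or more, so its count could include or lose reads of those.

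Sav1 encodes the scaffold that joins the MST kinases to their substrates (chromosome 12, 69965012 to 69987002, minus strand). Its abundances were 262 and 344 in double knockdown embryos, 301 and 273 in Rbbp4 knockdown embryos, 354 and 327 in Rbbp7 knockdown embryos, and 308 and 313 in controls. The double knockdown libraries bracketed the control libraries, and no change passed the test (adjusted p 0.864 to 0.971 against the control). Sav1 shares 1336 exonic bases with the antisense gene Atl1, and whether strand was used in counting is not given in the sources used here, so reads of the pair may be mixed.

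Lats1, a kinase that phosphorylates YAP directly (chromosome 10, 7681214 to 7716460, plus strand), had 257 and 257 in double knockdown embryos, 300 and 291 in Rbbp4 knockdown embryos, 243 and 236 in Rbbp7 knockdown embryos, and 297 and 275 in controls. Both groups with Rbbp7 siRNA lay below both groups without it. That ordering did not pass the test, with an average effect of Rbbp7 siRNA of −0.23 ± 0.12 and an interval of −0.50 to 0.04 (adjusted p = 0.476).

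Lats2, the other LATS kinase (chromosome 14, 57689662 to 57758388, minus strand), had 587 and 713 in double knockdown embryos, 693 and 610 in Rbbp4 knockdown embryos, 733 and 573 in Rbbp7 knockdown embryos, and 777 and 812 in controls. All 6 knockdown libraries lay below both control libraries, yet the 3 knockdown groups spread widely and overlapped one another. The changes were −0.30 ± 0.17 in the double, −0.29 ± 0.17 in the Rbbp4 and −0.29 ± 0.17 in the Rbbp7 knockdown (adjusted p = 0.411, 0.884 and 0.624), and the intervals ran from −0.68 to 0.10 over the 3. Without replicate 1 or 2 of the knockdown group the change was −0.16 or −0.44 in the double, −0.38 or −0.20 in the Rbbp4 and −0.47 or −0.12 in the Rbbp7 knockdown. These comparisons share the control libraries, so their likeness is not 3 separate observations. Lats2 shares 2955 exonic bases with Gm49361 on the same strand, and reads there may have been left out of its count.

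Mob1a encodes a MOB1 protein, the co-activator that LATS binds to become fully active. The gene, ENSMUSG00000043131, lies on chromosome 6, 83326016 to 83343776 on the plus strand. Its abundances were 908 and 906 in double knockdown embryos, 959 and 974 in Rbbp4 knockdown embryos, 1528 and 1456 in Rbbp7 knockdown embryos, and 1901 and 1570 in controls. The 4 libraries with Rbbp4 siRNA fell in a narrow band well under the 4 without, and the Rbbp7 knockdown lay just under the control. The group means were 907 ± 1.89 in the double knockdown, 967 ± 10.4 in the Rbbp4 knockdown and 1735 ± 234 in the control (SD, n = 2 each). Libraries with Rbbp4 siRNA averaged 937 ± 35.1, and libraries without averaged 1614 ± 197 (SD, n = 4 each).

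In the double knockdown against the control, Mob1a had a log2 change of −0.93 ± 0.13, with an interval of −1.22 to −0.64 (adjusted p = 0.0178). It was the 1 member of 10 called, where 1.15% of all tested genes were called and 0.501% were called lower. It ranked 32 of the 12565 tested genes by p. The average effect of Rbbp4 siRNA, 4 libraries against 4, was −0.78 ± 0.091 with an interval of −0.98 to −0.57 (adjusted p = 0.0162), again the 1 member called, where 0.47% of all tested genes were called and 0.191% were called lower. The Rbbp4 knockdown alone gave a change almost as large, −0.84 ± 0.13, which did not pass (adjusted p = 0.188) in a comparison where 0.0239% of genes, 3 in all, were called. Mob1a ranked 7 by p there.

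For the Rbbp7 siRNA no change of Mob1a passed the test. Mob1a changed by −0.21 ± 0.13 in the Rbbp7 knockdown against the control (adjusted p = 0.641), where 0.0239% of all genes were called, and by −0.09 ± 0.13 in the double knockdown against the Rbbp4 knockdown, with an interval of −0.38 to 0.20 (adjusted p = 0.867; 0.0159% of genes called). The first of these was −0.074 without control replicate 1 and −0.35 without control replicate 2. The average effect of Rbbp7 siRNA was −0.15 ± 0.091 (adjusted p = 0.539; 0.0955% called), with −0.083 without control replicate 1, and the interaction, the double knockdown's change less the sum of the single knockdowns' changes, was 0.12 ± 0.18 (adjusted p = 0.931; 0.00796% called). The double knockdown lay below the Rbbp7 knockdown by −0.72 ± 0.13, short of the threshold (adjusted p = 0.0588; 0.358% called). The direct difference between the single knockdowns, a comparison added after the data were seen, was −0.63 ± 0.13 (adjusted p = 0.164; 0.0796% called). Mob1a was therefore not shown to respond differently to the 2 siRNAs.

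In the double knockdown and in the average effect of Rbbp4 siRNA, the direction and size of the Mob1a change were steadier than its calls. Over 18 other settings the double knockdown's change stayed between −1.07 and −0.79, and it passed in 11 of them (adjusted p 0.0155 to 0.125). Leaving out control replicate 1 ended the call (adjusted p = 0.071). So did leaving out the first (0.0547) or the second (0.0532) library of the Rbbp4 knockdown, and the first (0.0742) or the second (0.0648) of the double knockdown. The average effect of Rbbp4 siRNA stayed between −0.85 and −0.71 over 17 settings and passed in 12 (adjusted p 0.011 to 0.0963). Leaving out the first (0.0963) or the second (0.0819) library of the Rbbp4 knockdown ended that call, as did the first (0.0602) or the second (0.0657) of the Rbbp7 knockdown. The Rbbp4 knockdown alone passed without control replicate 2 (−0.97, adjusted p = 0.0381), which leaves only the control library that stood apart. The plot of the alternatives shows each of these values for both comparisons.

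**Figure D1:**
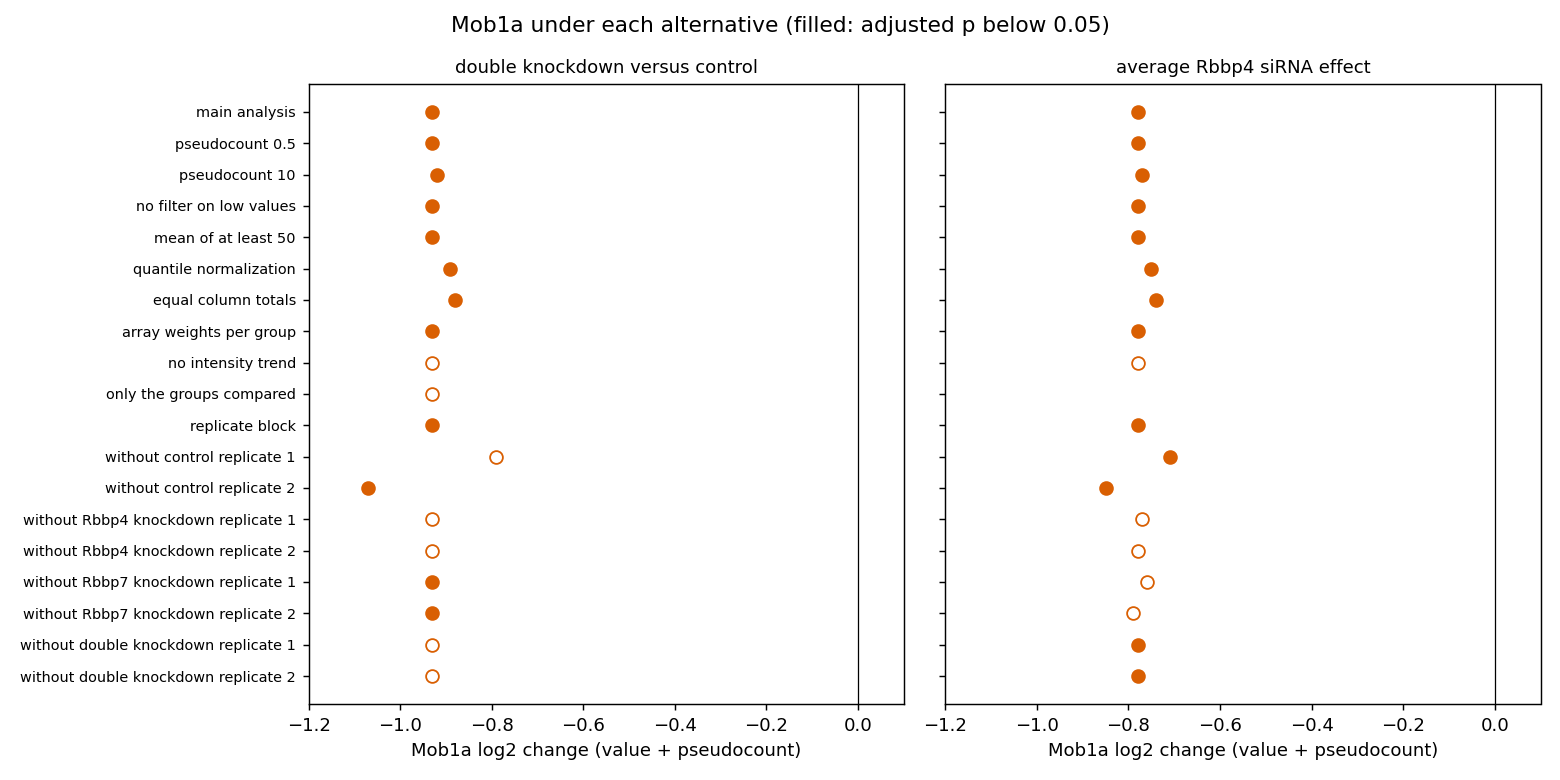
Log2 change of Mob1a (x axis) in the double knockdown against the control (left) and as the average effect of Rbbp4 siRNA (right) under the main setting and each alternative (y axis), filled where the adjusted p was below 0.05. All points lie left of 0, between −1.07 and −0.79 on the left for the alternatives and between −0.85 and −0.71 on the right, while filled and open points mix.

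Mob1b, on chromosome 5, 88720855 to 88764220, plus strand, encodes a second MOB1 protein. Reads of the pair can be told apart, because their coding sequences share 79.7% of 651 aligned bases, and the longest identical run in their transcripts is 20 bases. A stretch of 60 coding bases from the GENCODE M21 transcripts on GRCm38 is shown because it is among the most alike between them. It covers coding bases 310 to 369 of Mob1a and 325 to 384 of Mob1b, counted from the start codon, and the 4 capitals mark the bases that differ.
Mob1a: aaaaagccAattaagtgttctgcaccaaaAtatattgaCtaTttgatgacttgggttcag
Mob1b: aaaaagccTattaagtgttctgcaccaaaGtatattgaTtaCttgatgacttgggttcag
No other annotated gene matched 100 bases of either at 95% identity or more.

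Mob1b had 1009 and 864 in double knockdown embryos, 1084 and 904 in Rbbp4 knockdown embryos, 901 and 792 in Rbbp7 knockdown embryos, and 922 and 711 in controls. The groups overlapped, with the highest and lowest values in an Rbbp4 knockdown and a control library. Its changes from control were 0.20 ± 0.17 in the double, 0.29 ± 0.17 in the Rbbp4 and 0.06 ± 0.17 in the Rbbp7 knockdown (adjusted p = 0.582, 0.884 and 0.941), and the average effect of Rbbp4 siRNA was 0.22 ± 0.12 with an interval of −0.06 to 0.49 (adjusted p = 0.467). These values moved with the control library used. Without control replicate 1 the change was 0.39 in the double and 0.48 in the Rbbp4 knockdown, with an average effect of 0.31, and without control replicate 2 it was 0.018 and 0.10, with an average effect of 0.12. A rise of Mob1b beside the fall of Mob1a was thus not shown.

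The ratio of Mob1a to Mob1b abundance within each library was 0.9 and 1.05 in double knockdown embryos, 0.885 and 1.08 in Rbbp4 knockdown embryos, 1.7 and 1.84 in Rbbp7 knockdown embryos, and 2.06 and 2.21 in controls. The 4 libraries with Rbbp4 siRNA were near 1, and those without were clearly higher. Neither this ratio nor the sum below is corrected for length, and the joined exons span 4794 bases in Mob1a and 15033 in Mob1b. A ratio near 1 is therefore not an equal level of the 2 messages. Per kilobase of exon Mob1a and Mob1b had 189 and 62.3 in the double knockdown, and 362 and 54.3 in the control. The sum of the pair was 1917 and 1769 in double knockdown embryos, 2044 and 1879 in Rbbp4 knockdown embryos, 2428 and 2248 in Rbbp7 knockdown embryos, and 2823 and 2281 in controls. No other pair of paralogs separated the libraries by Rbbp4 siRNA. The ratio of Stk3 to Stk4 spanned 0.251 to 0.277 in the double knockdown and 0.204 to 0.24 in the control. That of Lats1 to Lats2 spanned 0.361 to 0.437 in the double knockdown and 0.338 to 0.383 in the control, and that of Yap1 to Wwtr1 2.46 to 2.77 in the double knockdown and 2.25 to 2.5 in the control. Differences in these ratios were not tested.

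**Figure D2:**
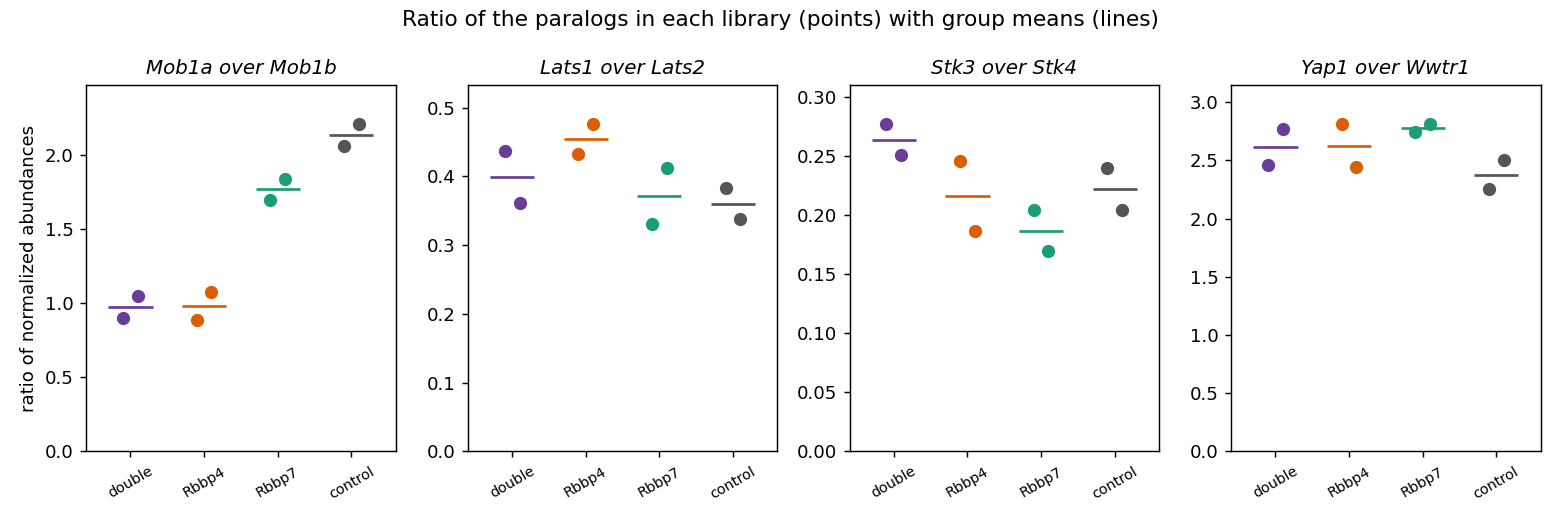
Ratio of normalized abundances of 4 paralog pairs (y axis, from 0) in each library (points) with group means (lines), for the double knockdown, the Rbbp4 knockdown, the Rbbp7 knockdown and the control. The abundances are not corrected for gene length, so a ratio of 1 is not an equal level. The ratio of Mob1a to Mob1b lies at 0.885 to 1.08 in the 4 libraries with Rbbp4 siRNA and at 1.7 to 2.21 in the 4 without, and the other 3 ratios overlap between those sets of libraries.

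Yap1 encodes YAP, the co-activator that the cascade restrains (chromosome 9, 7931999 to 8004596, minus strand). It had 3046 and 3254 in double knockdown embryos, 3212 and 2996 in Rbbp4 knockdown embryos, 2988 and 3117 in Rbbp7 knockdown embryos, and 2550 and 3132 in controls. The knockdown libraries and control replicate 2 were alike, and control replicate 1 was the lowest. The double knockdown's change was 0.16 ± 0.13, with an interval of −0.13 to 0.44 (adjusted p = 0.563), and without control replicate 1 it was 0.0075. Stretches of at least 100 bases of Yap1 transcripts match 8 other annotated genes at 95% identity or more.

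Wwtr1 encodes TAZ, the paralog of YAP (chromosome 3, 57455649 to 57575910, minus strand). It had 1238 and 1174 in double knockdown embryos, 1144 and 1228 in Rbbp4 knockdown embryos, 1089 and 1110 in Rbbp7 knockdown embryos, and 1131 and 1253 in controls. The Rbbp7 knockdown lay just under the control, and the other groups overlapped it. The double knockdown's change of 0.02 ± 0.12, with an interval of −0.25 to 0.29, was the smallest of the 10 in that comparison (adjusted p = 0.962).

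**Figure D3:**
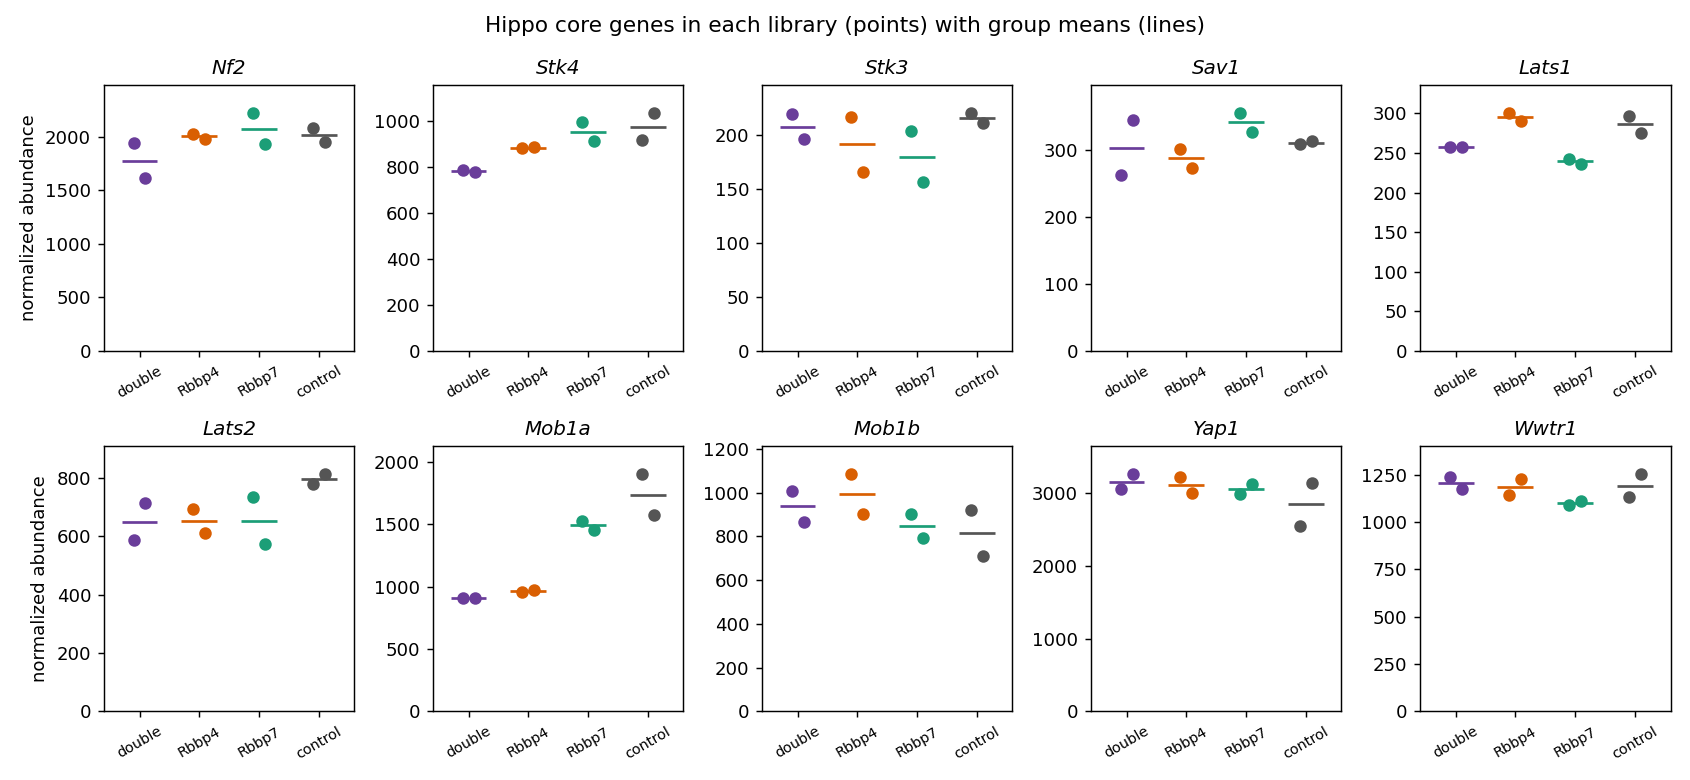
Normalized abundance (y axis, from 0) of the 10 Hippo core genes in each library (points) with group means (lines), for the double knockdown, the Rbbp4 knockdown, the Rbbp7 knockdown and the control. Mob1a lies at 906 to 974 in the 4 libraries with Rbbp4 siRNA and at 1456 to 1901 in the 4 without. Stk4 also separates by Rbbp4 siRNA, at 779 to 889 with it and 913 to 1035 without. Lats1 separates by Rbbp7 siRNA, at 236 to 257 with it and 275 to 300 without. Neither Stk4 nor Lats1 passed the test, and for most of the others the groups overlap.

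Over the 9 members other than Mob1a, changes from control ran from −0.31 (Stk4) to 0.20 (Mob1b) in the double knockdown, from −0.29 to 0.29 in the Rbbp4 knockdown and from −0.29 to 0.13 in the Rbbp7 knockdown. Their adjusted p-values lay between 0.252 and 0.962, 0.884 and 1, and 0.624 and 0.963. The 95% intervals reached from −0.68 to 0.59 in the double knockdown. Leaving out 1 library moved 24 of these 27 changes by more than 1.5 times, and 12 of them changed direction. In the double knockdown 3 of 10 members lay above control and 7 below, with a median of −0.11, against a median of −0.00056 over all tested genes. The median size of change, regardless of direction, was 0.17 over the members and 0.27 over all tested genes. At an unadjusted p below 0.05, Mob1a was the 1 member in the Rbbp4 knockdown, where 5.86% of all genes were, and 0 members were in the Rbbp7 knockdown, where 9.55% were. In the single knockdowns the medians were −0.06 and −0.07 for the members and 0.0049 and 0.0095 for all genes.

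**Figure D4:**
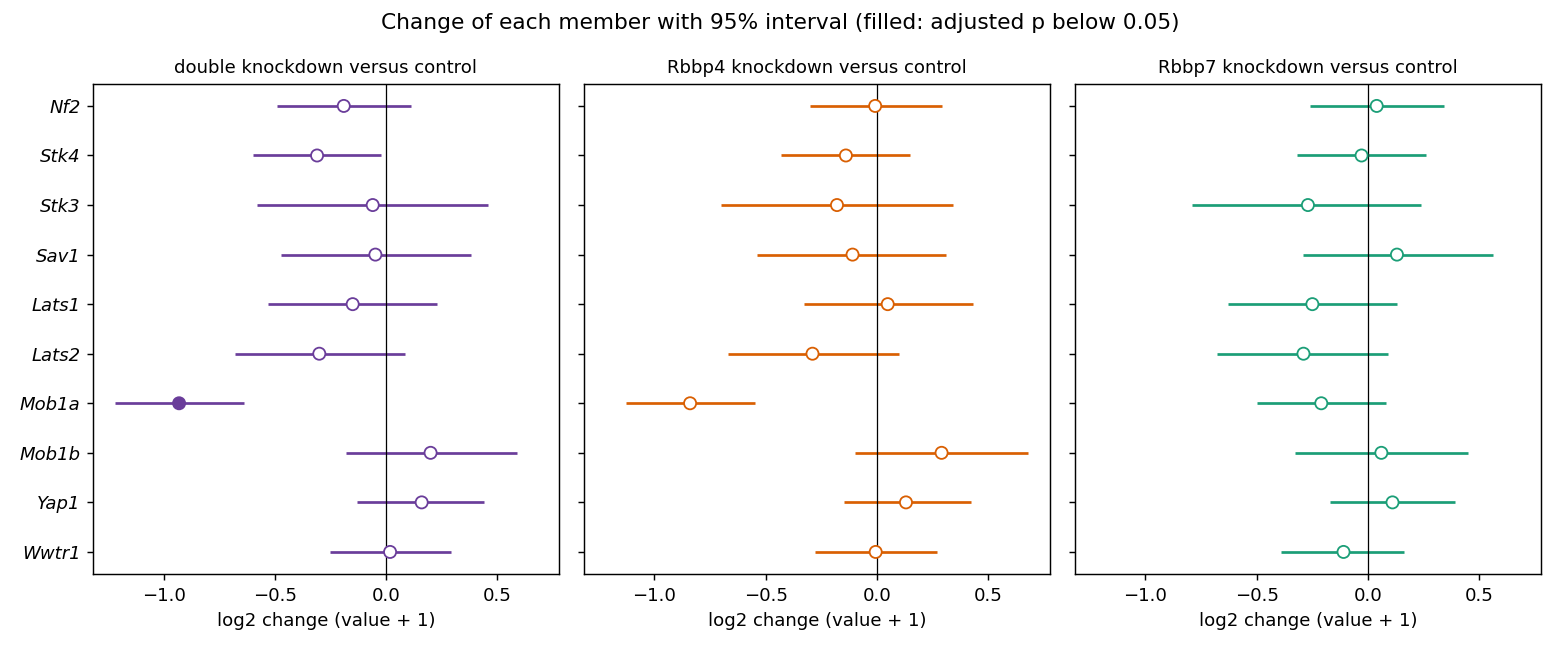
Log2 change (x axis, on abundance + 1) of each Hippo core gene (y axis) in the double, Rbbp4 and Rbbp7 knockdowns against the control, with 95% intervals and filled points where the adjusted p was below 0.05. The 1 filled point is Mob1a in the double knockdown at −0.93, and Mob1a in the Rbbp4 knockdown lies close to it at −0.84 but open.

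Per kilobase of exon, which allows genes to be compared, the order of the levels differed between groups in the place of Mob1a and in that of Sav1 and Mob1b. In the double knockdown Yap1 had 340 ± 15.9 per kilobase, Nf2 260 ± 34.3, Wwtr1 252 ± 9.44 and Mob1a 189 ± 0.395 (SD, n = 2 each). In the control Mob1a had 362 ± 48.9, Yap1 307 ± 44.4, Nf2 296 ± 13.3 and Wwtr1 249 ± 18.1. Mob1a thus ranked 4 of the 10 in the double and Rbbp4 knockdowns, 2 in the Rbbp7 knockdown and 1 in the control, where its libraries overlapped those of Yap1 but not those of Nf2. Below these came Stk4 (134 in the double knockdown, 167 in the control) and Lats2 (93.2 in the double knockdown, 114 in the control), then Sav1, Mob1b, Lats1 and Stk3 between 33.9 and 62.3 in the double knockdown and between 35.3 and 58.9 in the control. Mob1b ranked above Sav1 in the double and Rbbp4 knockdowns and below it in the Rbbp7 knockdown and the control, but they did not differ beyond their spread in the double knockdown or the control, and Lats1 and Stk3 did not in the double knockdown. Lengths are of all annotated exons joined, 15033 bases for Mob1b, so a gene whose embryos use a shorter form is understated.

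Genes whose pattern over the 8 libraries was most like that of Yap1, by the root mean square difference of centred log2 values, were Nadk (0.039), Dppa5a (0.05) and Bcl10 (0.051), against a median of 0.283 over all tested genes. Nadk makes NADP, Dppa5a is a gene of pluripotent cells and Bcl10 an adaptor of NF-kB signalling. All 3, like Yap1, had their lowest value in control replicate 1, with 1492 there for Nadk and 6990 for Dppa5a. That largely follows from choosing them by likeness. For Lats2 they were Gna15 (0.073), Timm8b (0.085) and Smurf1 (0.086), against a median of 0.318. Such likeness is a description of 8 libraries of unknown depth and handling, and a cause for it was not tested.

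TEAD factors carry YAP and TAZ on DNA and bind the letters GGAATG. The windows from 250 to 51 bases before the RefSeq starts (GRCm38.p6) were searched for it on both strands. Of the 10 members 9 had a promoter in the table, 12 promoters in all, and those of Yap1, Wwtr1, Mob1a and Sav1 held the motif, which occurs in 10.7% of 32851 promoters of that length. The matches are shown with 10 bases on each side, read along the gene's strand, because they are the pathway's own motif in its own genes, and capitals mark the motif or its reverse complement CATTCC.
Yap1, chr9:8004722-8004747, minus strand, 141 bases before the start: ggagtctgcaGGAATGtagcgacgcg
Wwtr1, chr3:57576031-57576056, minus strand, 136 bases before the start: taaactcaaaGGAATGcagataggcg
Mob1a, chr6:83325820-83325845, plus strand, 209 bases before the start: gccagaatagCATTCCtttaggagaa
Sav1, chr12:69987093-69987118, minus strand, 106 bases before the start: gctttcccagCATTCCcagcggcgcg
A match is not a site of binding, and 3 of these 4 genes passed no test. The cell cycle homology region TTTGAA, present in 13.6% of promoters, and the E2F motif GCGGGAA, present in 2.95%, were found in 0 of the members' windows. Bases nearer the start than 51 were not searched, so the promoters were not shown to lack these motifs.

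Of the TEAD and VGLL genes, which encode the DNA-binding partners of YAP and their cofactors, 7 of 8 were tested and 0 were called in any comparison against the control. The share called over all tested genes was 1.15% in the double knockdown and 0.0239% in each single knockdown. A list this short with 0 calls is therefore near the background. Of the 7 tested, 2 lay above and 5 below the control in the double knockdown, with a median of −0.11. Tead4, the TEAD factor of the trophectoderm, had 1766 and 1346 in double knockdown embryos, 1764 and 1634 in Rbbp4 knockdown embryos, 1785 and 1677 in Rbbp7 knockdown embryos, and 1907 and 1816 in controls. All 6 knockdown libraries lay under both controls, and the double knockdown's change was −0.27 ± 0.14 (adjusted p = 0.374), with −0.47 without its replicate 1 and −0.076 without its replicate 2. Tead3 changed by 1.01 ± 0.50 there (adjusted p = 0.335), with 120 and 55.5 in the double knockdown and 53.2 and 30.2 in the control. That change was 0.46 without double knockdown replicate 1, 1.56 without double knockdown replicate 2 and 0.61 without control replicate 2. The cofactor gene Vgll3 changed by −1.08 ± 0.38 in the Rbbp7 knockdown (adjusted p = 0.412), with 52.2 and 30.3 there and 99.5 and 73.2 in the control. It was −0.70 without Rbbp7 knockdown replicate 2.

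Angiomotins and junction proteins pass cell contact on to LATS. In the double knockdown 2 of 15 tested genes of this list lay above and 13 below the control. The list median was −0.21, and 0 were called, where 1.15% of all tested genes were. The Rbbp4 and Rbbp7 knockdowns had 11 and 12 below, with medians of −0.20 and −0.19, and also 0 called, where 0.0239% of all genes were in each. At an unadjusted p below 0.05 there were 7 of the 15 in the double knockdown, against 17.3% of all tested genes. There were 2 in the Rbbp4 and 4 in the Rbbp7 knockdown, against 5.86% and 9.55%. Whether the list differs from all genes on this measure was not tested. Over all tested genes 49.9%, 50.9% and 51.4% lay above the control in the double, Rbbp4 and Rbbp7 knockdowns. These comparisons share the control libraries, and direction was not tested for this or the other lists. Amot, the angiomotin that activates LATS in inner cells, had 1747 and 1567 in double knockdown embryos, 1884 and 2034 in Rbbp4 knockdown embryos, 1737 and 1745 in Rbbp7 knockdown embryos, and 2456 and 2201 in controls. Both controls stood above every knockdown library. Its change was −0.49 ± 0.12 in the double knockdown (adjusted p = 0.0904) and −0.42 ± 0.12 in the Rbbp7 knockdown (adjusted p = 0.292).

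Ctnna1, which encodes alpha-catenin of the adherens junction, had 4991 and 5487 in double knockdown embryos, 6082 and 6268 in Rbbp4 knockdown embryos, 6354 and 6088 in Rbbp7 knockdown embryos, and 7289 and 6929 in controls. The order was the same as for Amot in that both controls were highest, and the double knockdown's change was −0.44 ± 0.10 (adjusted p = 0.0857). Ptpn14, a phosphatase that binds YAP and is also on the list of YAP targets in other cells, lay above the control, as did 1 other gene of the list, Limd1 (0.28, adjusted p = 0.714, chosen after its value was seen). Ptpn14 had 331 and 308 in double knockdown embryos, 233 and 239 in Rbbp4 knockdown embryos, 314 and 225 in Rbbp7 knockdown embryos, and 176 and 100 in controls, and changed by 1.26 ± 0.28 in the double knockdown (adjusted p = 0.0753). Amotl2 changed by −0.21 ± 0.19 (adjusted p = 0.618) and Ajuba, a LIM protein that inhibits LATS, by −0.50 ± 0.20 (adjusted p = 0.255).

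Of 20 tested upstream kinases and RASSF genes, 13 lay above and 7 below the control in the double knockdown, with a median of 0.13, and 1 was called. That gene was Taok3 (chromosome 5, 117120129 to 117275219, plus strand), a TAO kinase of the family that phosphorylates MST kinases. It had 138 and 151 in double knockdown embryos, 101 and 77.7 in Rbbp4 knockdown embryos, 80.4 and 94.8 in Rbbp7 knockdown embryos, and 52.1 and 42.8 in controls. The single knockdowns overlapped each other between the double knockdown and the control, and the double knockdown's change was 1.59 ± 0.29 with an interval of 0.94 to 2.24 (adjusted p = 0.0401), where 0.645% of all genes were called higher. The Rbbp4 and Rbbp7 knockdowns changed by 0.89 ± 0.29 and 0.87 ± 0.29 (adjusted p = 0.771 and 0.384), and the interaction was −0.18 ± 0.41 (adjusted p = 0.955; −0.36 to 0.01 with a library left out). The call held in 5 of 18 alternatives and was lost without any 1 of the 8 libraries (adjusted p 0.0715 to 0.134), with changes of 1.45 to 1.73.

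Phosphatase subunits, 14-3-3 proteins and ubiquitin ligases end or redirect the signal. Of 23 tested, 5 lay above and 18 below the control in the double knockdown, with a median of −0.089. Over all tested genes 49.9% lay above. In this list 1 gene was called, lower, as were 0.501% of all tested genes. Btrc (chromosome 19, 45363734 to 45530013, plus strand) encodes the ligase component beta-TrCP, which marks phosphorylated YAP and TAZ for destruction, among many other substrates. It had 2280 and 2123 in double knockdown embryos, 2869 and 2968 in Rbbp4 knockdown embryos, 3500 and 3601 in Rbbp7 knockdown embryos, and 3252 and 3418 in controls. The 4 groups did not overlap, and the double knockdown was lowest.

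The Btrc change in the double knockdown was −0.60 ± 0.10 with an interval of −0.83 to −0.36 (adjusted p = 0.0346). Against the Rbbp7 knockdown it was −0.69 ± 0.10 (adjusted p = 0.034, with 0.358% of all genes called), and the average effect of Rbbp4 siRNA was −0.44 ± 0.074 (adjusted p = 0.0435, with 0.47% called). The Rbbp4 knockdown alone changed by −0.19 ± 0.10 (adjusted p = 0.861) and the Rbbp7 knockdown by 0.09 ± 0.10 (adjusted p = 0.819; 0.055 without control replicate 1), and the interaction of −0.50 ± 0.15 did not pass (adjusted p = 0.676). The call against the control held in 7 of 18 alternatives and that of the average effect in 4 of 17. Without any 1 of the 8 libraries both were lost, with adjusted p-values of 0.0715 to 0.106 for the first and 0.0697 to 0.2 for the second. The call against the Rbbp7 knockdown held in 9 of 18 alternatives and was lost without either library of any knockdown group (adjusted p 0.0775 to 0.198). An antisense pseudogene, Gm6807, shares 235 exonic bases with Btrc.

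No gene on the list of those that YAP activates in other cells was called against the control. Of 24 named, 15 were tested, of which 9 lay above and 6 below the control in the double knockdown, with a median of 0.23, and 0 were called. In the Rbbp4 knockdown 8 lay above and 7 below, and in the Rbbp7 knockdown 3 above and 12 below with a median of −0.09, where 51.4% of all tested genes lay above. Direction over the list was not tested, and 0 were called in either. These counts are near the share called over all tested genes, 1.15% in the double knockdown and 0.0239% in each single knockdown. The matrix protein genes Ccn1 and Ccn2, the usual reporters of YAP activity in adherent cells, are on this list. Ccn1 had 502 and 375 in double knockdown embryos, against 415 and 330 in controls. Ccn2 had 275 and 260 in double knockdown embryos, against 322 and 341 in controls. Their changes were 0.23 ± 0.22 and −0.31 ± 0.23 (adjusted p = 0.642 and 0.532). The Ccn1 change was 0.019 without double knockdown replicate 1, 0.44 without double knockdown replicate 2 and 0.063 without control replicate 2. Gadd45a, a stress gene, and Igfbp3, an IGF-binding protein gene, changed by 1.04 ± 0.29 and 1.61 ± 0.50 (adjusted p = 0.122 and 0.15). Ankrd1 was listed at 0 in both controls and both Rbbp7 knockdown libraries and reached 3.17 in the double knockdown, too low to be tested.

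Of 3 lineage genes downstream of YAP and TEAD4 in the embryo, 0 were called in any knockdown against the control with all libraries. Only 1.15% of all tested genes were called in the double knockdown and 0.0239% in each single knockdown. Cdx2, the trophectoderm regulator that YAP with TEAD4 activates, had 1409 and 1195 in double knockdown embryos, 2182 and 2071 in Rbbp4 knockdown embryos, 1700 and 1914 in Rbbp7 knockdown embryos, and 1771 and 2869 in controls. The double knockdown was lowest, the controls spread across the single knockdowns, and its change was −0.80 ± 0.21 (adjusted p = 0.101). Without control replicate 1 it was −1.14 and passed (adjusted p = 0.0428), and without control replicate 2 it was −0.45 (adjusted p = 0.192). In the Rbbp7 knockdown the change was −0.32 ± 0.21 (adjusted p = 0.659), and 0.027 without control replicate 2. Gata3, activated in the same cells, had 2079 and 1835 in double knockdown embryos, 2800 and 2678 in Rbbp4 knockdown embryos, 1835 and 2090 in Rbbp7 knockdown embryos, and 2598 and 3065 in controls. Its change was −0.53 ± 0.13 in the double (adjusted p = 0.0943) and −0.53 ± 0.13 in the Rbbp7 knockdown (adjusted p = 0.252).

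Both groups with Rbbp7 siRNA lay below both without for Gata3, with an average effect of −0.51 ± 0.09 (adjusted p = 0.0793), while Mob1a was separated by Rbbp4 siRNA. Sox2, an inner cell gene that YAP and TEAD4 keep off in outer cells, had 67.5 and 120 in double knockdown embryos, 208 and 129 in Rbbp4 knockdown embryos, 61.8 and 205 in Rbbp7 knockdown embryos, and 136 and 375 in controls. Both double knockdown values lay below both control values, and the Rbbp7 knockdown overlapped every other group. The double knockdown's change was −1.32 ± 0.62 (adjusted p = 0.317), with −2.05 without control replicate 1 and −0.59 without control replicate 2. In the Rbbp7 knockdown it was −0.99 ± 0.62 (adjusted p = 0.647), and between −1.85 and −0.14 with a library left out.

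In the Rbbp4 knockdown the changes of these genes were −0.085 ± 0.21 for Cdx2, −0.04 ± 0.13 for Gata3 and −0.46 ± 0.62 for Sox2 (adjusted p = 0.982, 0.988 and 0.96). Their direction rested on control replicate 2: without it they were 0.26 for Cdx2, 0.076 for Gata3 and 0.27 for Sox2.

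**Figure D5:**
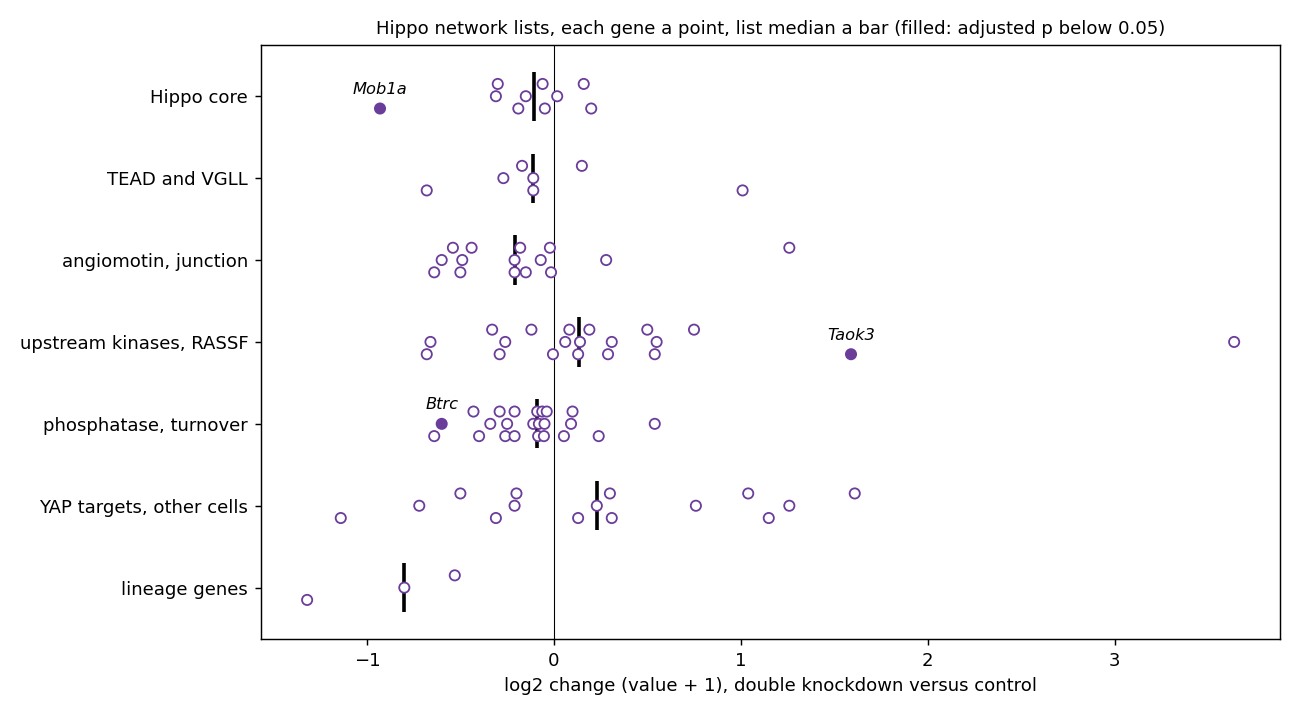
Log2 change (x axis, on abundance + 1) in the double knockdown against the control for each tested gene (points, filled where the adjusted p was below 0.05) of the Hippo core and 6 wider lists (y axis), with list medians as bars. The 3 filled points are Mob1a at −0.93, Btrc at −0.60 and Taok3 at 1.59, and the list medians run from −0.80 to 0.23.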

How the data were processed

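RNA of mouse late morulae was sequenced in 8 libraries, 2 in each of 4 groups taken from the sample titles. The values the authors deposited are a signal, normalized with DESeq2 per the name of the table, with 1 row per Ensembl gene, and are not raw counts. Per the submitters' processing notes Trimmomatic, HISAT2, featureCounts, DESeq2 and the build GRCm38 were used, and the sources used here give no versions, annotation or strand setting. The table spells the double knockdown otherwise than the titles, and its columns were matched by the genes named. It held 0 columns from other samples. Low values were whole multiples of a common step, within 0.05, for only 31.4% to 63.6% of values, so reads were not recovered, depth is unknown, no count model was fitted and no counting interval is given.

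Symbols and gene models came from GENCODE M21, and 18942 identifiers matched a symbol and 116 did not. Promoters came from RefSeq on GRCm38.p6. With limma 3.58.1 in R 4.3.3, 1 mean per group was fitted to log2(value + 1) of all 8 libraries with an intensity trend, for 12565 genes with a mean of at least 10 (6493 left out). Residual and prior degrees of freedom were 4 and 5.18, tests were two-sided, and p-values were adjusted by Benjamini-Hochberg within each of 9 comparisons, at a threshold of 0.05. The fit was tested on simulated data. Average effects set the 4 libraries with an siRNA against the 4 without, so they hold the double knockdown too.

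The members and lists were chosen with earlier results of these data known, so they are no independent support. Named are all members, every gene of a wider list called against the control or in an average effect (or, with none called, up to 3 with the smallest p), 8 fixed downstream genes (Cdx2, Gata3, Sox2, Ccn1, Ccn2, Amotl2, Ajuba, Ankrd1), and the 3 genes most like Yap1 and Lats2. A further list of the network is not reported here. The alternatives were pseudocounts of 0.5 and 10, no filter, a mean of at least 50, quantile normalization, equal totals, array weights, no trend, only the groups compared, a replicate block and each library left out.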

Additional observations from a re-analysis of the deposited data

How the results depend on the processing

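Of 1514 values of named genes under 18 alternatives, 1387 kept direction and side of the threshold, 88 lost a call, 7 gained a call and 32 changed direction, of which 0 were called. With 2 libraries per group and unknown depth, small changes were not detectable. In the double knockdown against the control, 0 members were called with no intensity trend and 0 with only the groups compared, and 0 to 1 with a library left out. For the average effect of Rbbp4 siRNA 0 were called with no trend, and 0 to 1 with a library left out. In the Rbbp4 knockdown 0 to 1 were called with a library left out. The double knockdown against the Rbbp7 knockdown gained 1 (Mob1a, adjusted p = 0.0495) at a mean of at least 50, and the single knockdowns against each other, a comparison chosen after seeing the data, gained 1 (Mob1a, 0.0479) with array weights.

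Directions changed for Wwtr1 (0.017 and 0.029) and Nf2 (0.0087 and 0.027) in the Rbbp4 knockdown under quantile normalization and equal totals, and for Star in the double knockdown (−0.14) under quantile normalization. With a library left out, values in the double knockdown ran from −0.44 to 0.021 for Amotl2, −0.25 to 0.15 for Sav1, −0.17 to 0.33 for Star, −0.14 to 0.02 for Stk3 and −0.056 to 0.092 for Wwtr1. In the Rbbp4 knockdown they ran from −0.43 to 0.26 for Cdx2, −0.16 to 0.076 for Gata3, −1.19 to 0.27 for Sox2, −0.0082 to 0.10 for Lats1, −0.10 to 0.0085 for Nanog, −0.054 to 0.038 for Nf2, −0.37 to 0.0096 for Stk3, −0.08 to 0.068 for Wwtr1 and −0.014 to 0.28 for Yap1. In the Rbbp7 knockdown they ran from −0.67 to 0.027 for Cdx2, −0.13 to 0.25 for Mob1b, −0.061 to 0.14 for Nf2, −0.12 to 0.057 for Stk4 and −0.037 to 0.26 for Yap1, and the interaction ran from −0.019 to 0.26 for Mob1a and −0.36 to 0.01 for Taok3. The cause was not tested.

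Over all genes the double knockdown against the control had 144 called, 2 with only the groups compared, 10 with no trend, 38 without control replicate 1, 38 with array weights and 196 at a mean of at least 50. The average effect of Rbbp4 siRNA had 59, against 5 with no trend and 13 without control replicate 1. The Rbbp4 and Rbbp7 knockdowns had 3 each, and 35 and 38 without control replicate 2. The single knockdowns against each other had 10, and 65 with array weights. Libraries of the same number did not deviate together (correlations −0.0221 to 0.051), and a replicate block gave 113 and 33 calls in the 2 comparisons where Mob1a was called, with adjusted p = 0.0285 and 0.0282 for Mob1a. The block ended the call of Taok3 (0.0577), the average effect call of Btrc (0.065) and its call against the Rbbp7 knockdown (0.0579). Nanog was not called against the Rbbp7 knockdown with no trend (0.0773) or with only the groups compared (0.107).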

Other observations

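Genes with a pattern most like that of Mob1a over the 8 libraries, looked up after its values were seen, were Max (root mean square difference 0.105), Gtpbp1 (0.134) and Pafah1b2 (0.137), against a median of 0.485 over all tested genes. Max, which encodes the dimer partner of MYC proteins, had 708 and 730 in double knockdown embryos, 665 and 691 in Rbbp4 knockdown embryos, 1030 and 1088 in Rbbp7 knockdown embryos, and 1256 and 1249 in controls. Pafah1b2, which encodes a subunit of a platelet-activating factor acetylhydrolase, had 998 and 777 in double knockdown embryos, 859 and 824 in Rbbp4 knockdown embryos, 1581 and 1301 in Rbbp7 knockdown embryos, and 1825 and 1669 in controls. For both, the 4 libraries with Rbbp4 siRNA lay below the 4 without. That largely follows from choosing genes by their likeness to Mob1a, so it is no separate support.

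The longest run of identical bases between the annotated transcripts of Rbbp4 and Mob1a was 12, and 17 between the reverse complement of Rbbp4 and Mob1a. For Mob1b, which was not called, the same 2 values were 27 and 20, and for Yap1 44 and 20. These are runs over whole transcripts. A match of the siRNA itself to any of these transcripts was not tested. The promoter windows of Mob1a and Mob1b, 250 to 51 bases before the start, held 9 and 12 CpG dinucleotides, against a median of 4 over 32851 promoters. Of those promoters 67.9% held fewer than Mob1a and 75.7% fewer than Mob1b, so neither count is unusual.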
